A study of Homo sapiens with 30 samples.

Results

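The ERBB receptors other than ERBB2, the growth factors that bind them and the feedback inhibitor ERRFI1 were examined in SUM190 cells, an established human line of inflammatory breast cancer. The set was defined by gene name, with earlier results of these data known, and it holds 10 of the 20114 gene symbols measured. Of these, 3 are receptors (EGFR, ERBB3 and ERBB4), 6 are ligands (AREG, EREG, HBEGF, TGFA, BTC and NRG1) and the last is ERRFI1. Poly-A RNA was sequenced from 30 libraries that form 15 groups of 2. The doxorubicin-resistant derivative (SUM190_DR) was given DMSO or doxorubicin at 350 nM or 1 µM. The paclitaxel-resistant derivative (SUM190_PR) was given DMSO, paclitaxel at 6.5 or 10 nM, ruxolitinib, or ruxolitinib with 6.5 nM paclitaxel. Parental cells were given DMSO, 65 nM or 1 µM doxorubicin, 2.5 or 10 nM paclitaxel, ruxolitinib, or 2.5 nM paclitaxel together with ruxolitinib. Doxorubicin poisons topoisomerase II, paclitaxel stabilises microtubules and ruxolitinib inhibits the kinases JAK1 and JAK2. Drugs were added 24 h after seeding and RNA was taken after 72 h of exposure, with DMSO as the vehicle. Labels put ruxolitinib at 15 µM when given alone but at 15 nM in both combinations, so no difference between ruxolitinib alone and the combinations was computed. Where all groups are ranked or drawn together, these labelled doses differ. The labels leave unsaid whether a resistant line is 1 clone and whether the 2 libraries of a group came from separate cultures. The p-values therefore rest on a spread between libraries that may be technical only.

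The ERBB family are receptor tyrosine kinases that dimerise when a ligand binds and then drive the RAS-ERK and PI3K-AKT pathways. EGFR binds AREG, EREG, TGFA, BTC and HBEGF, ERBB3 and ERBB4 bind neuregulins such as NRG1, and ERBB4 also binds BTC, EREG and HBEGF. ERBB2 has no known ligand of its own and serves as the preferred partner of the other receptors, and ERBB3 has little kinase activity. The ligands are made as membrane-bound precursors that proteases such as ADAM17 and ADAM10 cut loose, and several ligand genes and ERRFI1 are themselves induced by ERK, which makes them a readout of signalling as well as its source. ERRFI1, also called MIG6, binds the kinase domain of EGFR and its relatives and blocks it.

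Of the ligand genes, EPGN (epigen, a further EGFR ligand that is not among the 10), EREG, AREG and BTC follow each other on chromosome 4. No other protein-coding gene lies between them in GRCh38.p14, while HBEGF lies on chromosome 5. These genes took different courses in the same libraries, as described below, so the 100 bases before their start sites are shown, on the strand of the gene and in the GRCh38.p14 coordinates of RefSeq, a build other than the GRCh37 of the submitters. Capitals mark a cyclic AMP response element (TGACGTCA) and a TATA box (TATAAA).
EREG, chr4:74365045-74365144, plus strand: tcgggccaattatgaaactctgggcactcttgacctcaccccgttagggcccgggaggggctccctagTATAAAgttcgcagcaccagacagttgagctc
AREG, chr4:74445036-74445135, plus strand: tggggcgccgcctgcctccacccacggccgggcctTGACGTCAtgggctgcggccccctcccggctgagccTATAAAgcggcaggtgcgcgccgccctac
BTC, chr4:74794524-74794623, minus strand: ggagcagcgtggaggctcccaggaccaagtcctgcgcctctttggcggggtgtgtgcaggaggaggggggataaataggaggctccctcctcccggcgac
HBEGF, chr5:140346604-140346703, minus strand: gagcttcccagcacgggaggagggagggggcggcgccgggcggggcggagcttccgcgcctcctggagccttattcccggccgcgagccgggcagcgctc

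RefSeq gave 11 windows of 300 bases for EPGN and 8 of the members, from 250 bases before the start to 50 after it, since EGFR and TGFA have more than 1 start. Both strands were searched. The cyclic AMP response element was in 1 of the 11 windows, that of AREG, and in 1.85% of 35116 promoter windows of the genome. TATAAA was in 4 of the 11, namely EPGN, EREG, AREG and the second start of EGFR, and in 11.5% of all windows. The STAT motif TTCNNNGAA was in 0 of the 11 windows and in 7.66% of all. The AP-1 motif TGANTCA was in 1 window, the second start of EGFR, and in 7.71% of all. A loose NF-kB motif, GGG and CC with any 5 bases between them, was in 8 windows and in 58.7% of all. No match says only that these letters are not in these windows.

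In parental cells with DMSO, the most abundant member for the length of its transcript was ERRFI1. Levels are in CPM, reads scaled to a library size adjusted by TMM, a normalisation between libraries, here divided by transcript length in kb. ERRFI1 stood at 393 CPM per kb, against 585 CPM per kb for ERBB2 and 589 CPM per kb for EPGN. ERBB3 had 25.4 and EGFR 19.2 CPM per kb, HBEGF 12.6, TGFA 6.24, BTC 6.16, AREG 4.00 and EREG 3.04, with ERBB4 lowest of the 9 detected at 0.702 CPM per kb. NRG1 was close to absent, with 4 reads in total over 4 of the 30 libraries and 0 reads in the other 26. Where no read was seen, as many as 3 could be expected by counting error alone, equal to 0.0947 to 0.163 CPM depending on the library. NRG1 therefore did not enter any test, and the 9 other members did. AREG has a near-identical copy, AREGB, which was listed at 0 to 0.454 CPM, so AREG reads that could not be told from the copy may be missing and its values are uncertain.

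**Figure D1:**
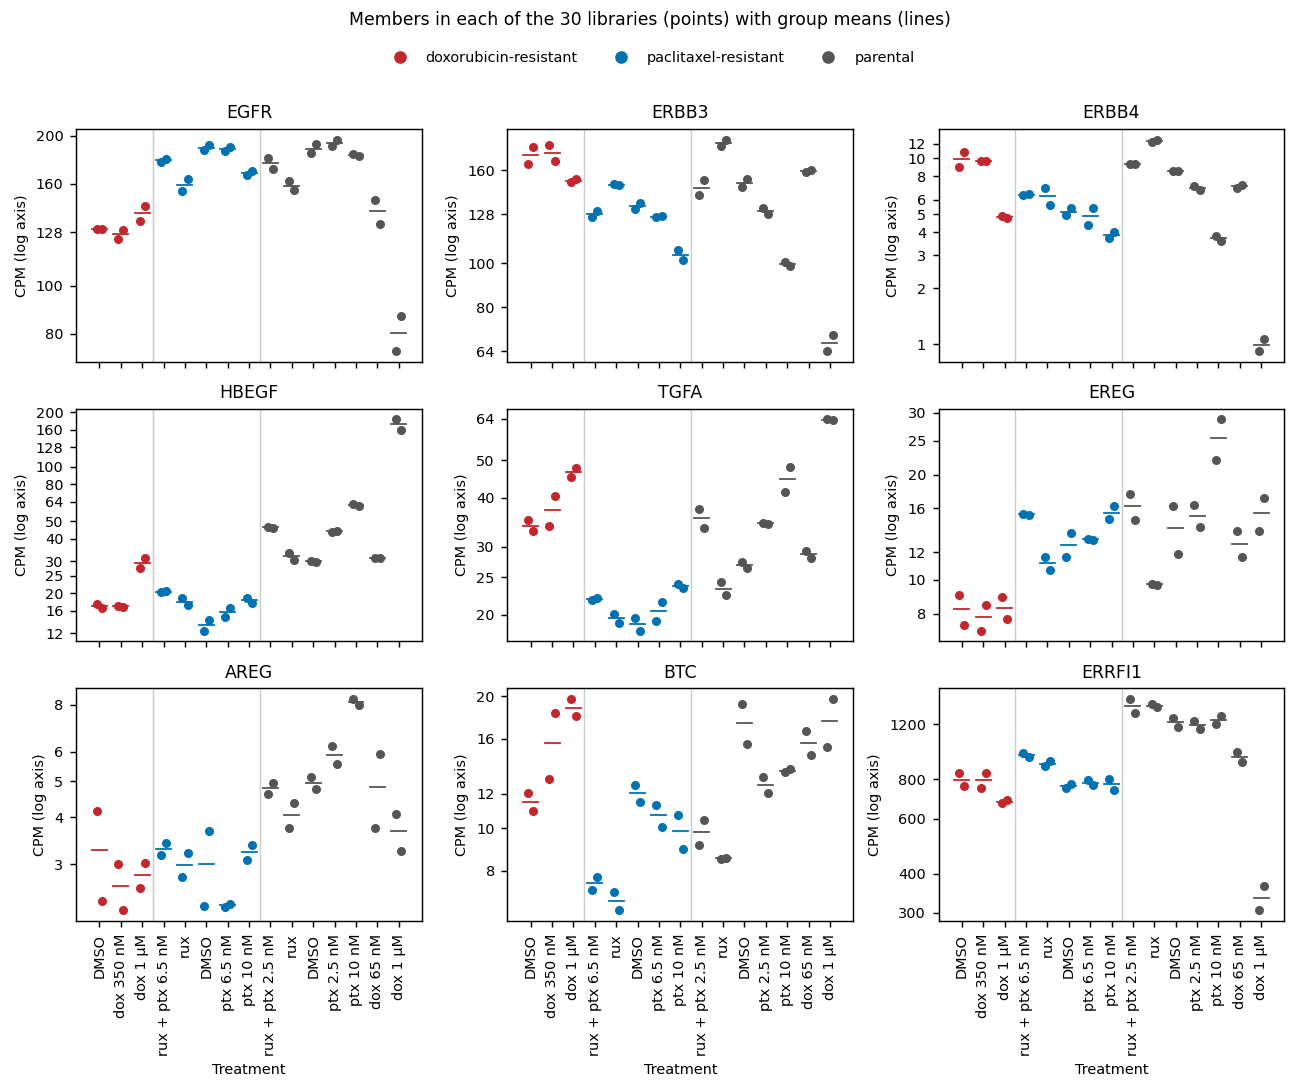
CPM (log axis) of the 9 detected members in each of the 30 libraries, as points with a line at the mean of each group of 2; dox is doxorubicin, ptx paclitaxel and rux ruxolitinib. HBEGF and TGFA are highest and EGFR, ERBB3, ERBB4 and ERRFI1 lowest in parental cells with 1 µM doxorubicin, and HBEGF reaches at most 31.2 CPM in the libraries of the resistant lines.

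The libraries held 18443749 to 32669995 reads in genes and ERBB4 in parental cells with 1 µM doxorubicin rested on 19 and 27 of them. Differences were tested with limma on log2(CPM + 1) over all 15 groups and 12743 genes, and genes with an adjusted p (Benjamini-Hochberg) under 0.05 are written as called. Log2 fold changes are on that scale, are given ± SE with n = 2 libraries a group, and understate the change of genes at a few CPM. All 10 epithelial markers were above 0 in every library (summed 4263 to 7036 CPM), while 17 markers of stromal, endothelial and immune cells summed to 19.5 to 52.0 CPM, most of it CD68 and COL1A1. Of the others, VWF reached 7.08, CDH5 6.06, PTPRC 5.96 and CD14 5.20 CPM in their highest library, while COL1A2, COL3A1, CD3E and MS4A1 were at 0 in 20 or more libraries. By chi-square of their counts the parental DMSO libraries differed more than any other replicate pair (38.0 per degree of freedom, against 2.23 for the closest pair), although by Pearson r (0.997 for parental DMSO) 3 other pairs were further apart. The parental DMSO difference followed the GC content of transcripts (Spearman rho 0.800). Comparisons with parental DMSO share these 2 libraries and are not independent of each other. In bulk RNA, fewer cells of a kind and less RNA per cell cannot be told apart.

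The first comparison asked how the doxorubicin-resistant line differed from parental cells with no drug on either. The ligands HBEGF, EREG, BTC and AREG, the receptor EGFR and the inhibitor ERRFI1 were lower in the resistant line, and TGFA and ERBB3 were higher. HBEGF, which is made by many epithelia and also serves as the diphtheria toxin receptor, had 17.5 and 16.6 CPM in doxorubicin-resistant cells, against 30.2 and 29.7 CPM in parental cells. EREG had 9.06 and 7.42 CPM in doxorubicin-resistant cells, against 16.2 and 11.9 CPM in parental cells. BTC had 12.04 and 10.96 CPM in doxorubicin-resistant cells, against 19.2 and 15.5 CPM in parental cells. The groups did not overlap for these 3 ligands, but the share of all genes without overlap was not computed in any comparison. On the log2 scale the lower parental library of EREG lay about as far from its own replicate as from the resistant cells. The log2 fold change was -0.78 ± 0.09 for HBEGF (adjusted p = 2.51e-07), -0.69 ± 0.15 for EREG (adjusted p = 0.000853) and -0.55 ± 0.14 for BTC (adjusted p = 0.00391).

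EGFR had 130 and 130 CPM in doxorubicin-resistant cells, against 184 and 192 CPM in parental cells, a change of -0.53 ± 0.07 (adjusted p = 6.01e-06). ERRFI1 had 837 and 760 CPM in doxorubicin-resistant cells, against 1258 and 1181 CPM in parental cells, a change of -0.61 ± 0.08 (adjusted p = 3.53e-06). TGFA, the prototype EGFR ligand beside EGF, went the other way, with 35.04 and 32.84 CPM in doxorubicin-resistant cells, against 27.4 and 26.4 CPM in parental cells (0.32 ± 0.09, adjusted p = 0.00906). ERBB3 was also higher, by 0.20 ± 0.07 (adjusted p = 0.0279). AREG was lower by -0.51 ± 0.18 (adjusted p = 0.0392), although the resistant libraries of 4.15 and 2.38 CPM stood far apart, against 5.14 and 4.77 CPM in parental cells. ERBB4 was not called (9.88 and 8.52 CPM on average in doxorubicin-resistant and parental cells, interval of the log2 difference -0.037 to 0.41). In all, 8 of the 9 tested members were called, 2 higher and 6 lower, where 27.5% of all genes tested were. Among the alternatives that kept all 30 libraries, the lowest count of called members was 6. The calls of BTC and ERBB3 were lost without parental DMSO replicate 1 or doxorubicin-resistant DMSO replicate 2 (adjusted p up to 0.0684 and 0.282), that of AREG without either parental DMSO library or doxorubicin-resistant replicate 2 (up to 0.562), and that of TGFA without parental DMSO replicate 2 or doxorubicin-resistant replicate 1 (up to 0.0928).

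Paclitaxel-resistant cells with DMSO had lower levels of the ligands HBEGF, TGFA, BTC and AREG, of ERBB4 and of ERRFI1, while EGFR, EREG and ERBB3 were not called. HBEGF had 12.4 and 14.2 CPM in paclitaxel-resistant cells, against 30.2 and 29.7 CPM in parental cells, the largest difference of a member between untreated lines (-1.12 ± 0.09, adjusted p = 4.57e-10). ERRFI1 had 754 and 772 CPM in paclitaxel-resistant cells, against 1258 and 1181 CPM in parental cells (-0.68 ± 0.08, adjusted p = 7.16e-07). ERBB4 had 4.93 and 5.38 CPM in paclitaxel-resistant cells, against 8.54 and 8.51 CPM in parental cells (-0.63 ± 0.11, adjusted p = 7.64e-05). All 3 were well separated between the lines.

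TGFA had 19.6 and 18.2 CPM in paclitaxel-resistant cells, against 27.4 and 26.4 CPM in parental cells (-0.49 ± 0.09, adjusted p = 0.000196). BTC changed by -0.49 ± 0.14 (adjusted p = 0.00787) and AREG by -0.59 ± 0.18 (adjusted p = 0.0144), and both calls were lost without parental DMSO replicate 1 or 1 of the paclitaxel-resistant libraries (adjusted p up to 0.101 and 0.268). EGFR averaged 189 ± 3 CPM in paclitaxel-resistant cells and 188 ± 6 CPM in parental cells (SD, n = 2 each), with an interval of the log2 difference of -0.15 to 0.16. The change was -0.13 ± 0.15 for EREG, whose groups overlapped, and -0.17 ± 0.07 for ERBB3 (adjusted p = 0.0591). Of the 9 tested members 0 were higher and 6 lower, where 32.6% of all genes tested were called.

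Set against each other with DMSO on both, the doxorubicin-resistant line had more TGFA, ERBB4, ERBB3 and HBEGF than the paclitaxel-resistant line and less EGFR and EREG, 6 of the 9 members where 34.0% of all genes were called. TGFA had 35.04 and 32.84 CPM in doxorubicin-resistant cells, against 19.6 and 18.2 CPM in paclitaxel-resistant cells (0.81 ± 0.09, adjusted p = 1.80e-07). ERBB4 had 8.99 and 10.8 CPM in doxorubicin-resistant cells, against 4.93 and 5.38 CPM in paclitaxel-resistant cells (0.82 ± 0.11, adjusted p = 2.19e-06). EGFR had 130 and 130 CPM in doxorubicin-resistant cells, against 187 and 192 CPM in paclitaxel-resistant cells (-0.54 ± 0.07, adjusted p = 3.66e-06). The parental libraries do not enter these differences. The smaller difference of HBEGF (0.34 ± 0.09, adjusted p = 0.00347) was lost without paclitaxel-resistant replicate 1 (adjusted p = 0.0859) and that of EREG (-0.56 ± 0.15, adjusted p = 0.00449) without replicate 2 of either line (up to 0.0831). ERRFI1, BTC and AREG were not called, with overlapping groups.

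Among other genes of the family and pathway, EPGN was lower in both resistant lines, by -0.70 ± 0.14 in doxorubicin-resistant cells (adjusted p = 0.000462) and by -1.63 ± 0.14 in paclitaxel-resistant cells (adjusted p = 2.50e-09), with 446 and 415 CPM in doxorubicin-resistant cells and 222 and 227 CPM in paclitaxel-resistant cells, against 800 and 609 CPM in parental cells. NRG4, a neuregulin that binds ERBB4, was higher in doxorubicin-resistant cells (1.48 ± 0.11, adjusted p = 2.16e-10) and EGF in paclitaxel-resistant cells (0.44, adjusted p = 0.0055). Of 20 genes taken as output of the ERK pathway, 3 were higher and 8 lower in doxorubicin-resistant cells (median -0.09, beside -0.0053 over all genes), and 5 were higher and 10 lower in paclitaxel-resistant cells (median -0.15, beside -0.011). SPRY4, a Sprouty inhibitor of the pathway, was higher in both (1.24 and 1.36), whereas the early gene EGR1 was lower in doxorubicin-resistant cells (-0.76) and higher in paclitaxel-resistant cells (1.37). Both are comparisons with the same parental libraries. The kinase SRC was lower in doxorubicin-resistant (-0.85) and paclitaxel-resistant cells (-1.15), among 18 receptor adaptors of which 1 was higher and 5 lower in the first line and 0 higher and 5 lower in the second, near the 27.5% and 32.6% called over all genes. Of 13 genes of ligand shedding, 2 were higher and 3 lower in doxorubicin-resistant cells and 2 higher and 6 lower in paclitaxel-resistant cells, with ADAM19 the lowest in each (-1.02 and -1.76).

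Some cell type markers differed between the untreated lines as well. Over all genes 27.5% were called in doxorubicin-resistant and 32.6% in paclitaxel-resistant cells, each against parental cells. Of 10 epithelial markers, 1 was higher and 4 lower in doxorubicin-resistant cells, with KRT8 (-0.49) and CDH1 (-0.45) among the lower. The list median was -0.094, beside -0.0053 over all genes. In paclitaxel-resistant cells 4 were higher and 4 lower, with KRT8 (-1.03) and KRT18 (-0.95) among the lower. The list median there was -0.037, beside -0.011 over all genes. The stromal, endothelial and immune markers summed to 36.5 and 33.8 CPM in doxorubicin-resistant and 22.6 and 23.7 CPM in paclitaxel-resistant cells, against 28.3 and 31.8 CPM in parental cells. Of the 8 of them tested, COL1A1 (0.59) was higher and CDH5 (-0.57) lower in doxorubicin-resistant cells, and VWF (0.66) was higher and CD68 (-0.84) lower in paclitaxel-resistant cells. The called share of these 8 was not above that over all genes in either line. The part of these markers in the members' differences was not tested.

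**Figure D2:**
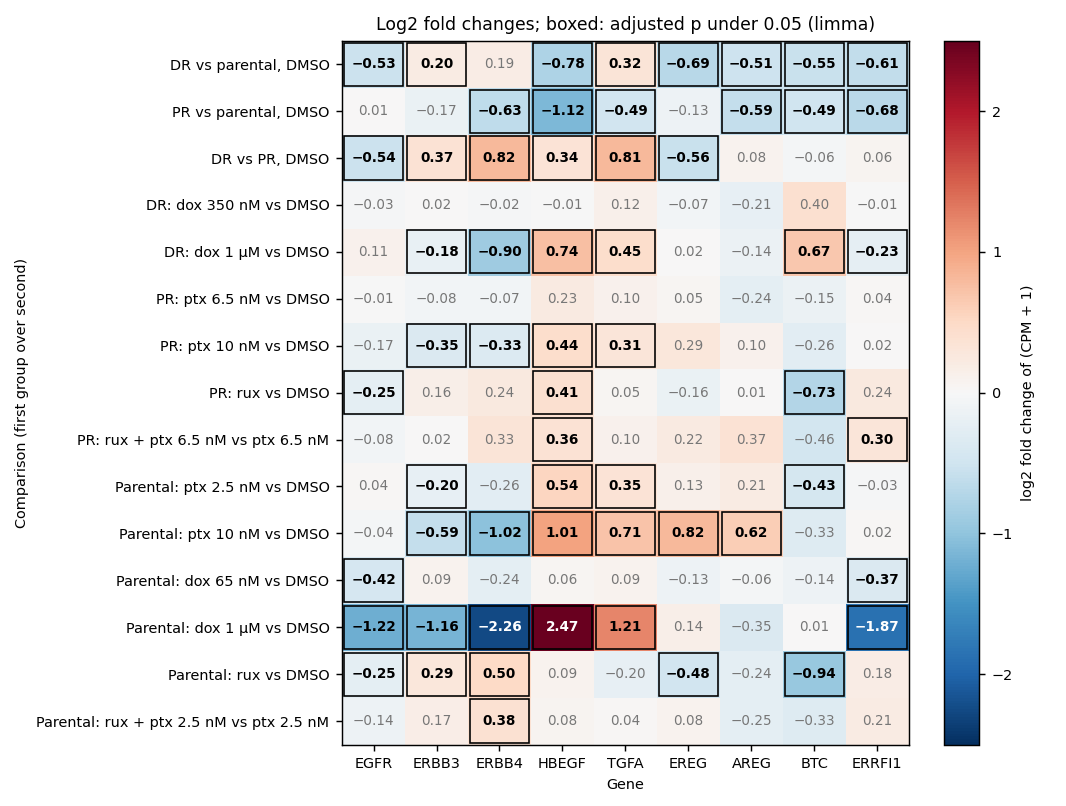
Log2 fold change of (CPM + 1) for the 9 tested members (columns) in 15 comparisons (rows), the first named group over the second, with boxes around values at an adjusted p under 0.05; DR is doxorubicin-resistant and PR paclitaxel-resistant. The largest values are 2.47 for HBEGF and -2.26 for ERBB4 in parental cells with 1 µM doxorubicin, and the rows for the lower dose in each resistant line hold no box.

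Doxorubicin at 1 µM on parental cells gave the largest differences of the set. HBEGF and TGFA were higher and all 3 receptors and ERRFI1 were lower, while AREG, EREG and BTC were not called. HBEGF had 182 and 159 CPM with 1 µM doxorubicin, against 30.2 and 29.7 CPM with DMSO, which is 5.70 times the DMSO mean (2.47 ± 0.09, adjusted p = 3.60e-17). TGFA had 63.7 and 63.6 CPM with 1 µM doxorubicin, against 27.4 and 26.4 CPM with DMSO (1.21 ± 0.09, adjusted p = 2.32e-11). No other group of the 15 had as high a level of either ligand.

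Among the receptors, EGFR had 73.9 and 87.1 CPM with 1 µM doxorubicin, against 184 and 192 CPM with DMSO (-1.22 ± 0.07, adjusted p = 5.76e-13). ERBB3 had 63.99 and 69.49 CPM with 1 µM doxorubicin, against 147 and 153 CPM with DMSO (-1.16 ± 0.07, adjusted p = 2.62e-13). ERBB4 had 0.916 and 1.06 CPM with 1 µM doxorubicin, against 8.54 and 8.51 CPM with DMSO (-2.26 ± 0.11, adjusted p = 8.15e-15), and the ratio of mean CPM was 0.116. The receptor libraries of the drug-treated group thus lay below every other library of the series. ERRFI1 had 305 and 364 CPM with 1 µM doxorubicin, against 1258 and 1181 CPM with DMSO (-1.87 ± 0.08, adjusted p = 1.77e-15). The background to these 6 calls, 2 higher and 4 lower, is that 75.8% of all genes tested were called at this dose. BTC had 15.3 and 19.7 CPM with 1 µM doxorubicin, against 19.2 and 15.5 CPM with DMSO, overlapping groups with an interval of the log2 difference of -0.28 to 0.29.

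The lower dose of 65 nM on parental cells gave 2 called members, both lower, where 11.2% of all genes were called (1421 genes, and 2891 after correction for GC content and length). With only the parental groups in the model 1 member was called in place of 2. EGFR had 149 and 133 CPM with 65 nM doxorubicin, against 184 and 192 CPM with DMSO (-0.42 ± 0.07, adjusted p = 0.000773). ERRFI1 had 980 and 908 CPM with 65 nM doxorubicin, against 1258 and 1181 CPM with DMSO (-0.37 ± 0.08, adjusted p = 0.00485). HBEGF had 31.2 and 31.3 CPM with 65 nM doxorubicin, against 30.2 and 29.7 CPM with DMSO, and was not called (0.06 ± 0.09). The EGFR call was lost without 65 nM replicate 2 (adjusted p = 0.0502) and that of ERRFI1 without the same library or parental DMSO replicate 1 (adjusted p up to 0.126).

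In doxorubicin-resistant cells, 1 µM doxorubicin raised HBEGF, TGFA and BTC and lowered ERBB4, ERBB3 and ERRFI1, 6 of the 9 tested members where 39.1% of all genes were called. HBEGF had 27.5 and 31.2 CPM with 1 µM doxorubicin, against 17.5 and 16.6 CPM with DMSO (0.74 ± 0.09, adjusted p = 5.05e-07), so that the treated resistant cells stood near the untreated parental cells. TGFA had 45.3 and 47.9 CPM with 1 µM doxorubicin, against 35.04 and 32.84 CPM with DMSO (0.45 ± 0.09, adjusted p = 0.000428). BTC, a ligand of both EGFR and ERBB4, had 19.7 and 18.0 CPM with 1 µM doxorubicin, against 12.04 and 10.96 CPM with DMSO (0.67 ± 0.14, adjusted p = 0.000507). ERBB4 had 4.89 and 4.76 CPM with 1 µM doxorubicin, against 8.99 and 10.8 CPM with DMSO (-0.90 ± 0.11, adjusted p = 7.92e-07). The groups did not overlap for any of these 4, and the share of all genes without overlap was not computed. EGFR was not called although its groups did not overlap either, with 135 and 144 CPM with 1 µM doxorubicin, against 130 and 130 CPM with DMSO (0.11 ± 0.07). The small changes of ERBB3 (-0.18 ± 0.07, adjusted p = 0.0333) and ERRFI1 (-0.23 ± 0.08, adjusted p = 0.0300) were lost without either doxorubicin library or 1 of the DMSO libraries, replicate 2 for ERBB3 and replicate 1 for ERRFI1 (adjusted p up to 0.282 and 0.252), and that of ERBB3 also under median-of-ratios scaling. At 350 nM 0 members were called by limma and 0 by a voom fit, 1 (BTC) had an unadjusted p under 0.05, and 3.81% of all genes were called.

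The response to 1 µM itself differed between the lines for 7 of 9 members, where it did for 58.3% of all genes. The difference of the responses, doxorubicin-resistant minus parental, was 1.64 ± 0.12 for ERRFI1 (adjusted p = 9.19e-11), 1.36 ± 0.15 for ERBB4 (adjusted p = 9.57e-08), 1.33 ± 0.10 for EGFR (adjusted p = 4.80e-10), 0.97 ± 0.10 for ERBB3 (adjusted p = 1.25e-08) and 0.66 ± 0.20 for BTC (adjusted p = 0.00597). It was -1.72 ± 0.12 for HBEGF (adjusted p = 1.01e-10) and -0.77 ± 0.13 for TGFA (adjusted p = 2.24e-05). For each of these except BTC the resistant line moved less than the parental cells, and for BTC it moved more. The same 7 calls were made without any 1 of the 30 libraries. AREG (0.22 ± 0.26) and EREG (-0.12 ± 0.21) were not called. The median difference over all genes was 0.079.

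**Figure D3:**
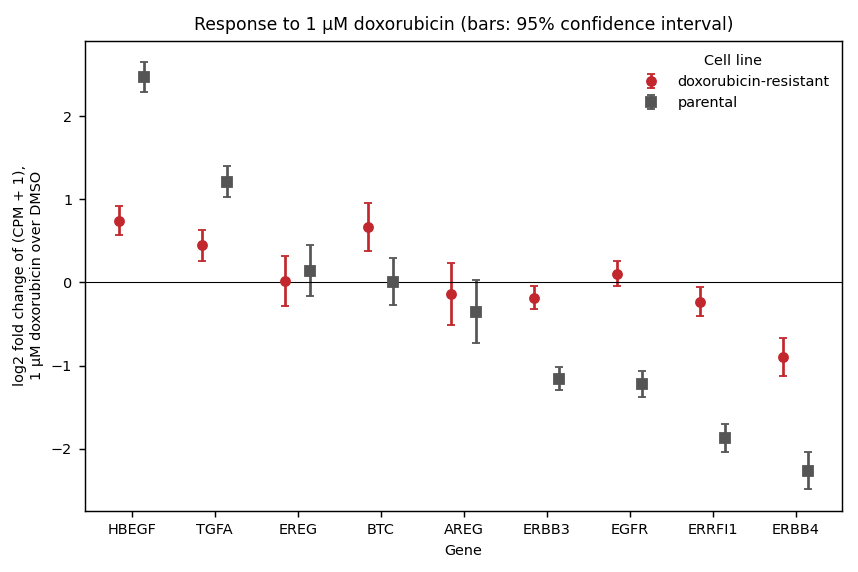
Log2 fold change of (CPM + 1) with 1 µM doxorubicin over DMSO for each tested member in doxorubicin-resistant (circles) and parental cells (squares), with 95% confidence intervals from limma (n = 2 libraries a group). HBEGF reads 0.74 in doxorubicin-resistant and 2.47 in parental cells, and EGFR 0.11 in doxorubicin-resistant and -1.22 in parental cells.

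Around the members, EPGN had 180 and 252 CPM in parental cells with 1 µM doxorubicin, against 800 and 609 CPM with DMSO (-1.71 ± 0.14, adjusted p = 1.05e-10), whereas EREG, AREG and BTC, which follow it on chromosome 4, were not called. In doxorubicin-resistant cells EPGN had 417 and 425 CPM with 1 µM doxorubicin, against 446 and 415 CPM with DMSO, and was not called. ERBB2 was lower in parental cells at this dose, with 1926 and 1516 CPM with doxorubicin, against 2469 and 3140 CPM with DMSO (-0.70 ± 0.11, adjusted p = 6.33e-06). Over all genes 34.3% were called higher and 41.5% lower at this dose. Of 17 genes that end receptor signalling or degrade the receptors, 3 were higher and 12 lower in parental cells with 1 µM doxorubicin (median -0.56, beside -0.073 over all genes). They included LRIG3 (-1.27) and LRIG1 (-1.02), membrane proteins of which LRIG1 is a known brake on the ERBB receptors, and the endocytic adaptor EPS15 (-1.24). Of the 13 shedding genes 3 were higher and 6 lower, with ADAM19 at -2.75, RHBDF2, a partner that ADAM17 needs to mature, at -2.12 and ADAM10 at -1.17. ADAM17 itself was slightly higher (0.22). Of 14 genes listed for the PI3K-AKT pathway 2 were higher and 11 lower, PIK3CB among them (-1.34). That list holds PDK1 (-2.001), a symbol that stands for pyruvate dehydrogenase kinase and not for the AKT kinase PDPK1, which was higher (0.39). Of 18 adaptors 5 were higher and 8 lower, and the called shares of the shedding and adaptor genes were not above that over all genes.

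Of 20 ERK output genes in parental cells with 1 µM doxorubicin, 10 were higher and 5 lower (median 0.16), and the 15 called are about the share called over all genes, 75.8%. EPHA4 (2.30), SPRED3 (1.72) and SPRY4 (1.67) were the highest, and the ERK phosphatase DUSP4 (-1.37) and SPRY1 (-1.16) the lowest. In doxorubicin-resistant cells 8 of the 20 were higher and 3 lower (median 0.22, beside 4.0e-06 over all genes, of which 19.1% were higher and 19.9% lower), again with EPHA4 highest (1.37) and DUSP4 lowest (-0.82). The summed stromal, endothelial and immune markers were also higher in parental cells with 1 µM doxorubicin, at 49.004 and 42.504 CPM, against 28.3 and 31.8 CPM with DMSO. In doxorubicin-resistant cells they stood at 46.3 and 40.3 CPM with 1 µM doxorubicin, against 36.5 and 33.8 CPM with DMSO. Of the 8 tested, 5 were higher and 1 (CDH5, -1.20) lower in parental cells. VWF averaged 6.78 CPM with 1 µM doxorubicin, against 0.404 CPM with DMSO (2.47), and CD14 5.08 CPM with doxorubicin, against 0.452 CPM with DMSO (2.07), with ACTA2 at 1.29, PTPRC at 1.17 and CSF1R at 0.50. In doxorubicin-resistant cells 3 were higher, VWF (1.65), PTPRC (1.496) and ACTA2 (0.65). The PTPRC value there rests mainly on 1 library at 5.96 CPM, with a group mean of 3.10 CPM. COL1A2, COL3A1, CD3E and MS4A1 were at or under 0.505 CPM in every library. Epithelial markers moved too, with 3 of 10 higher and 6 lower in parental cells, MUC1 at -2.504, KRT19 at -2.01, FOXA1 at -1.59 and KRT8 at 0.98 among them. In doxorubicin-resistant cells 2 were higher and 4 lower, with FOXA1 at -0.89 and CDH1 at 0.70. The part of either marker list in the members' differences was not tested.

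Paclitaxel raised the ligands HBEGF and TGFA in parental cells at both doses, and EREG and AREG at the higher dose, while ERBB3 and ERBB4 were lower. HBEGF had 30.2 and 29.7 CPM with DMSO, 43.8 and 44.0 CPM with 2.5 nM and 62.4 and 60.4 CPM with 10 nM paclitaxel. TGFA had 27.4 and 26.4 CPM with DMSO, 34.6 and 34.3 CPM with 2.5 nM and 41.4 and 48.1 CPM with 10 nM paclitaxel. For both ligands the doses did not overlap. At 10 nM the log2 fold change over DMSO was 1.01 ± 0.09 for HBEGF (adjusted p = 3.73e-09) and 0.71 ± 0.09 for TGFA (adjusted p = 1.23e-06).

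EREG had 22.1 and 28.8 CPM with 10 nM paclitaxel, against 16.2 and 11.9 CPM with DMSO (0.82 ± 0.15, adjusted p = 9.02e-05). AREG had 8.29 and 7.99 CPM with 10 nM paclitaxel, against 5.14 and 4.77 CPM with DMSO (0.62 ± 0.18, adjusted p = 0.00771). BTC, the next protein-coding gene on chromosome 4, did not share this: it had 13.4 and 13.6 CPM with 10 nM paclitaxel, against 19.2 and 15.5 CPM with DMSO, and missed the threshold (-0.33 ± 0.14, adjusted p = 0.0507). AREG and EREG carry TATAAA in the windows printed above and BTC does not, which is a description of the letters only. EPGN also carries it and was not called at 10 nM (-0.27 ± 0.14, adjusted p = 0.116). HBEGF and TGFA do not carry it in their windows and were higher. ERBB4 had 3.84 and 3.58 CPM with 10 nM paclitaxel, against 8.54 and 8.51 CPM with DMSO (-1.02 ± 0.11, adjusted p = 9.38e-08). ERBB3 had 101 and 98.3 CPM with 10 nM paclitaxel, against 147 and 153 CPM with DMSO (-0.59 ± 0.07, adjusted p = 2.60e-07). EGFR and ERRFI1 were not called (-0.04 ± 0.07 and 0.02 ± 0.08). Of the 9 tested members 4 were higher and 2 lower at 10 nM, where 48.2% of all genes were called.

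At 2.5 nM HBEGF (0.54 ± 0.09, adjusted p = 0.000277) and TGFA (0.35 ± 0.09, adjusted p = 0.00912) were higher, and BTC (-0.43 ± 0.14, adjusted p = 0.0252) and ERBB3 (-0.20 ± 0.07, adjusted p = 0.0300) were lower, where 26.8% of all genes were called. With only the parental groups in the model 1 member was called, HBEGF, and the calls of TGFA, BTC and ERBB3 were lost. The TGFA and BTC calls were lost without parental DMSO replicate 1 or 2.5 nM replicate 2 (adjusted p up to 0.0769 and 0.331), and that of BTC also after correction for GC content and length. The ERBB3 call was lost without any 1 of the 4 libraries and under median-of-ratios scaling (adjusted p up to 0.192), and the HBEGF call held in all 38 alternatives.

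In paclitaxel-resistant cells HBEGF and TGFA were higher and ERBB3 and ERBB4 lower with 10 nM paclitaxel. HBEGF had 12.4 and 14.2 CPM with DMSO, 14.8 and 16.6 CPM with 6.5 nM and 18.9 and 17.7 CPM with 10 nM paclitaxel, and even the highest of these lay below every parental library. At 10 nM HBEGF changed by 0.44 ± 0.09 (adjusted p = 0.00144) and TGFA by 0.31 ± 0.09 (adjusted p = 0.0235), with 24.0 and 23.5 CPM of TGFA with 10 nM paclitaxel, against 19.6 and 18.2 CPM with DMSO. ERBB3 had 107 and 102 CPM with 10 nM paclitaxel, against 131 and 136 CPM with DMSO (-0.35 ± 0.07, adjusted p = 0.00104). ERBB4 had 3.75 and 4.03 CPM with 10 nM paclitaxel, against 4.93 and 5.38 CPM with DMSO (-0.33 ± 0.11, adjusted p = 0.0422). These 4 calls stand where 13.6% of all genes were called. The HBEGF call was lost without DMSO replicate 1 (adjusted p = 0.0513), that of TGFA without any 1 of the 4 libraries (up to 0.199) and that of ERBB4 under 14 of the 38 alternatives (up to 0.254), the voom fit and the GC correction among them. At 6.5 nM 0 members were called by limma and 0 by voom, 1 (HBEGF) had an unadjusted p under 0.05, and 0.0942% of all genes were called.

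The difference of the 10 nM responses, paclitaxel-resistant minus parental, was -0.57 ± 0.12 for HBEGF (adjusted p = 0.00410), 0.68 ± 0.15 for ERBB4 (adjusted p = 0.00564) and -0.40 ± 0.13 for TGFA (adjusted p = 0.0479), where 10.8% of all genes were called. The call for TGFA was lost under 29 of the 38 alternatives. EREG (-0.53 ± 0.21, adjusted p = 0.108) and AREG (-0.52 ± 0.26, adjusted p = 0.215) were not called, so their responses are not shown to differ between the lines. With 10 nM paclitaxel ERBB4 had 3.75 and 4.03 CPM in paclitaxel-resistant cells and 3.84 and 3.58 CPM in parental cells, overlapping groups that had been apart with DMSO.

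**Figure D4:**
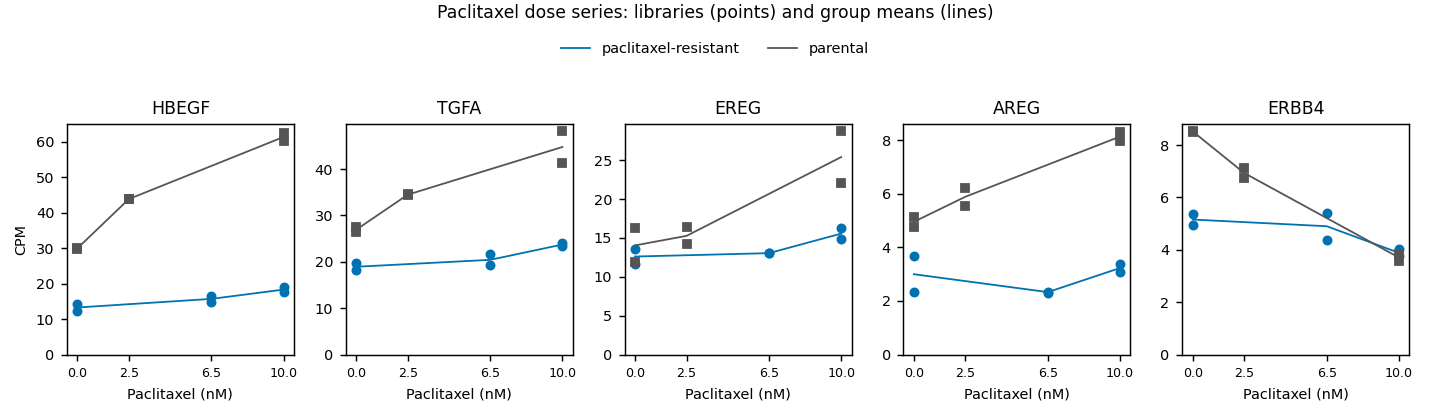
CPM of 5 members against the paclitaxel dose in nM (0 is DMSO) in paclitaxel-resistant (circles) and parental cells (squares), each point a library and each line joining group means. HBEGF stands at 62.4 and 60.4 CPM in parental cells with 10 nM, above every library of the paclitaxel-resistant line, while ERBB4 at 10 nM is at 3.75 and 4.03 CPM in paclitaxel-resistant and 3.84 and 3.58 CPM in parental cells.

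Among the ERK output genes, 10 of 20 were higher and 0 lower in parental cells at 2.5 nM (median 0.25, beside -0.015 over all genes), and 10 were higher and 2 lower at 10 nM (median 0.39, beside -0.045). Over all genes 9.71% were higher and 17.1% lower at 2.5 nM, and 20.1% higher and 28.1% lower at 10 nM. FOSL1, an AP-1 subunit that ERK stabilises and induces, led at both doses (0.93 and 1.62), with MYEOV (0.87 and 1.28) and SPRY4 (0.67 and 1.29). In paclitaxel-resistant cells at 10 nM 5 were higher and 2 lower, beside 6.62% and 6.99% of all genes, with DUSP5, a nuclear ERK phosphatase, at 0.67 and EGR1 at -0.49. The difference of the responses was called for 6 of the 20, all lower, beside 10.8% of all genes in either direction, including EGR1 (-1.38), FOSL1 (-1.06) and SPRY4 (-0.93). With 10 nM paclitaxel 2 of the 13 shedding genes were higher and 5 lower in parental cells, and 2 were higher and 2 lower in paclitaxel-resistant cells. Of the 18 adaptors 3 were higher and 4 lower in parental cells, and 0 higher and 1 lower in paclitaxel-resistant cells. ADAM17, the main protease for HBEGF, TGFA, AREG and EREG, was among the higher in parental (0.47) and in paclitaxel-resistant cells (0.25). The adaptor GRB7 was higher in parental cells (1.34). GRB7 lies beside ERBB2 on the chromosome, yet ERBB2 was lower, with 2008 and 1686 CPM with 10 nM paclitaxel, against 2469 and 3140 CPM with DMSO in parental cells (-0.60 ± 0.11, adjusted p = 0.000166). In paclitaxel-resistant cells ERBB2 had 1743 and 2041 CPM with 10 nM paclitaxel, against 2635 and 2638 CPM with DMSO (-0.48 ± 0.11, adjusted p = 0.00628). Of the 14 PI3K-AKT genes 0 were higher and 8 lower in parental cells at 10 nM, and 0 higher and 3 lower in paclitaxel-resistant cells. The stromal, endothelial and immune markers summed to 52.0 and 46.6 CPM in parental cells with 10 nM paclitaxel, against 28.3 and 31.8 CPM with DMSO. In paclitaxel-resistant cells they summed to 27.7 and 29.8 CPM with 10 nM, against 22.6 and 23.7 CPM with DMSO. In parental cells 4 of the 8 tested were higher, CSF1R (1.16), CD68 (0.92), VWF (0.86) and CD14 (0.83), and COL1A1 (-0.42) was lower, and in paclitaxel-resistant cells CDH5 (0.60) and CD68 (0.41) were higher. Of the 10 epithelial markers, 1 was higher and 6 lower in parental cells with 10 nM, KRT19 (-0.81) and FOXA1 (-0.76) the lowest, and 0 were higher and 3 lower in paclitaxel-resistant cells. The part of these markers in the members' results was not tested.

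Ruxolitinib lowered BTC in both lines. In parental cells BTC had 8.52 and 8.56 CPM with ruxolitinib, against 19.2 and 15.5 CPM with DMSO (-0.94 ± 0.14, adjusted p = 4.39e-05). In paclitaxel-resistant cells it had 7.15 and 6.49 CPM with ruxolitinib, against 12.6 and 11.5 CPM with DMSO (-0.73 ± 0.14, adjusted p = 0.00122). Both calls held in all 38 alternatives. EPGN was lower in both lines as well, with 458 and 463 CPM with ruxolitinib, against 800 and 609 CPM with DMSO in parental cells (-0.60 ± 0.14, adjusted p = 0.00481). In paclitaxel-resistant cells EPGN had 143 and 147 CPM with ruxolitinib, against 222 and 227 CPM with DMSO (-0.63 ± 0.14, adjusted p = 0.00592).

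Of the other members in parental cells, ERBB4 had 12.3 and 12.6 CPM with ruxolitinib, against 8.54 and 8.51 CPM with DMSO, and its mean was the highest of the 15 groups (0.50 ± 0.11, adjusted p = 0.00275). ERBB3 also had its highest mean there, with 181 and 187 CPM with ruxolitinib, against 147 and 153 CPM with DMSO (0.29 ± 0.07, adjusted p = 0.00466). EREG had 9.75 and 9.65 CPM with ruxolitinib, against 16.2 and 11.9 CPM with DMSO (-0.48 ± 0.15, adjusted p = 0.0334), and EGFR changed by -0.25 ± 0.07 (adjusted p = 0.0297). That made 2 members higher and 3 lower, where 13.2% of all genes were called. With only the parental groups in the model the calls of ERBB3, EREG and EGFR were lost, and with no filter that of EREG. The ERBB3 call was also lost without ruxolitinib replicate 2. Those of EREG and EGFR were also lost without either ruxolitinib library or 1 of the DMSO libraries, replicate 1 for EREG and replicate 2 for EGFR. The ERBB4 call held in all 38 alternatives.

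In paclitaxel-resistant cells 1 member was higher and 2 were lower with ruxolitinib, where 6.92% of all genes were called. HBEGF had 18.7 and 17.2 CPM with ruxolitinib, against 12.4 and 14.2 CPM with DMSO (0.41 ± 0.09, adjusted p = 0.00419), a call lost without DMSO replicate 1 or ruxolitinib replicate 1 (up to 0.125). EGFR changed by -0.25 ± 0.07 (adjusted p = 0.0445), which was lost under 17 of the 38 alternatives. The difference of the ruxolitinib responses, paclitaxel-resistant minus parental, was called for 0 members by limma and 0 by voom, with 1 (HBEGF) at an unadjusted p under 0.05, and for 0.408% of all genes. For BTC the interval of that difference was -0.20 to 0.61.

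**Figure D5:**
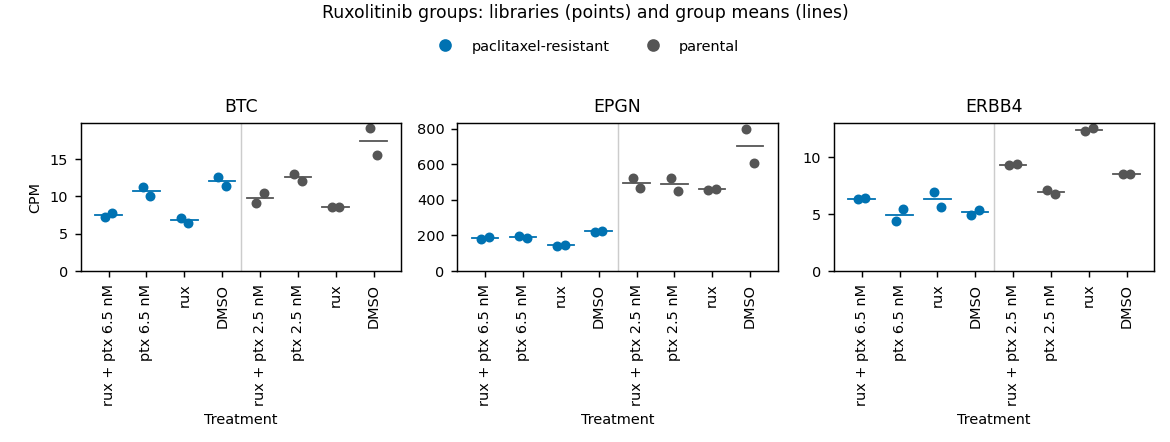
CPM of BTC, EPGN and ERBB4 in paclitaxel-resistant and parental cells with ruxolitinib (rux), paclitaxel (ptx), both or DMSO, each point a library and each line a group mean. BTC is at 8.52 and 8.56 CPM in parental cells with ruxolitinib, against 19.2 and 15.5 CPM with DMSO.

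When ruxolitinib was added to low paclitaxel, at the dose labelled 15 nM, ERBB4 was the 1 called member in parental cells, where 27.9% of all genes were called. It had 9.30 and 9.37 CPM with both drugs, against 7.13 and 6.74 CPM with 2.5 nM paclitaxel alone (0.38 ± 0.11, adjusted p = 0.0127). The call was lost without paclitaxel replicate 2 or combination replicate 1 and after the GC correction (up to 0.134). HBEGF had 46.6 and 46.1 CPM with both drugs, against 43.8 and 44.0 CPM with paclitaxel alone, and was not called (interval -0.10 to 0.26). In paclitaxel-resistant cells HBEGF had 20.4 and 20.4 CPM with both drugs, against 14.8 and 16.6 CPM with 6.5 nM paclitaxel alone (0.36 ± 0.09, adjusted p = 0.0189), which was lost without paclitaxel replicate 1 or either combination library (up to 0.311). ERRFI1 had 975 and 946 CPM with both drugs, against 796 and 768 CPM with paclitaxel alone (0.30 ± 0.08, adjusted p = 0.0465), which was lost under 21 of the 38 alternatives. These 2 calls stand where 3.28% of all genes were called. BTC had 7.21 and 7.75 CPM with both drugs, against 11.3 and 10.1 CPM with paclitaxel alone, and was not called (-0.46 ± 0.14, adjusted p = 0.0722).

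ERK output genes were mixed under ruxolitinib alone, with 2 higher and 4 lower of 20 in parental cells and 3 higher and 2 lower in paclitaxel-resistant cells, where 13.2% and 6.92% of all genes were called in these comparisons. FOSL1 was lower in each (-0.76 and -0.65) and the ETS factor ETV5 higher (1.00 and 0.52). Of 14 PI3K-AKT genes 1 was higher and 1 lower in each line. Of 17 genes that end receptor signalling or degrade the receptors, 2 were higher and 4 lower in parental cells. In paclitaxel-resistant cells 1 of the 17 was higher and 1 lower. The regulatory subunit PIK3R1 of PI3K was lower in parental (-0.42) and paclitaxel-resistant cells (-0.76), and CBLB, a ubiquitin ligase for the receptors, was higher in both (0.42 and 0.34). With ruxolitinib added to low paclitaxel in parental cells, 1 ERK output gene was higher and 7 were lower, and 0 of 13 shedding genes were higher and 5 lower, beside 15.1% of all genes higher and 12.9% lower. The stromal, endothelial and immune markers summed to 23.6 and 23.5 CPM in parental cells with ruxolitinib, against 28.3 and 31.8 CPM with DMSO, and to 19.5 and 20.2 CPM in paclitaxel-resistant cells with ruxolitinib, against 22.6 and 23.7 CPM with DMSO. Of these only CD68 in parental cells (-0.69) and CDH5 in paclitaxel-resistant cells (-0.89) were called. Of the 10 epithelial markers, 1 was higher and 1 lower in parental cells with ruxolitinib. In paclitaxel-resistant cells 0 were higher and 1 lower. MUC1 was lower in parental (-0.64) and paclitaxel-resistant cells (-0.41). The part of either list in the members' differences was not tested.

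Across the 15 group means the widest range was that of HBEGF (3.59 on the log2 scale), followed by ERBB4 (2.76), ERRFI1 (2.05) and TGFA (1.70). Ordered by its mean, HBEGF ran from parental cells with 1 µM doxorubicin, 10 nM paclitaxel, ruxolitinib with 2.5 nM paclitaxel and 2.5 nM paclitaxel, through the other parental groups, to the 8 groups of the resistant lines, and 5 of the 14 neighbouring pairs overlapped. For EGFR 6 of 14 neighbouring pairs overlapped, for ERBB4 6, TGFA 7, ERBB3 8, ERRFI1 9, EREG 10, BTC 10 and AREG 11, so the order of levels is little resolved for the lowest ligands. AREG nonetheless had its highest means in parental cells with 10 and 2.5 nM paclitaxel alone. BTC had its highest mean in doxorubicin-resistant cells with 1 µM doxorubicin (18.9 CPM) and its lowest in paclitaxel-resistant cells with ruxolitinib (6.82 CPM).

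As a description over 15 groups that share lines and treatments, ERBB3 and ERBB4 ran together (Pearson r = 0.94), as did ERBB3 and ERBB2 (0.88). HBEGF and TGFA had r = 0.77, EGFR and ERRFI1 0.77, and AREG and EREG 0.68. EGFR and TGFA ran against each other (-0.65). AREG and its neighbour BTC had r = 0.17. The genes whose group means were most like HBEGF were ZNF646 (r = 0.97), DNMBP (0.96) and ISG20 (0.96). Those most like ERBB4 were DOCK5 (0.97), PYCR1 (0.96) and RPL34 (0.96), those most like ERRFI1 were JARID2 (0.97), XKR8 (0.96) and ALPK3 (0.96), and those most like TGFA were WDR45B (0.97), CHMP4C (0.96) and LARP6 (0.96). Parental cells with 1 µM doxorubicin lie at the end of the range for each of these 4 members and weigh heavily in these values.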

How the data were processed

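The 30 poly-A RNA libraries of 3 lines were grouped by labelled line and treatment, 2 to a group. The submitters' processing notes list STAR 2.5.1b, edgeR and GRCh37 (hg19); which program counted reads, and with what annotation, is not given in the sources used here. As deposited by the authors, the data are 1 table of log2 values, log2(CPM + 1) after TMM scaling, and CPM was computed back from it. CPM fell on whole multiples of 1 read's worth in 100% of values (tolerance 0.01), and this gave the reads per library.

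Differences were tested with limma 3.58.1 (R 4.3.3) in 1 model of the 15 groups, with trended and robust variances (15 residual degrees of freedom, prior median 8.08) and two-sided p-values. It held the 12743 genes that reached 1 CPM in 2 libraries or more, and p was adjusted over them within each of 18 comparisons. Alternatives were a pseudocount of 0.25, no filter, median-of-ratios scaling, replicate block, no trend, voom on recovered reads, a correction for GC and length (GENCODE v29 transcripts, 95.3% of tested genes), only the lines compared, and each library left out, its partner then being taken to vary like other groups. Python 3.11.15 and pandas 2.3.3 handled tables. CPM per kb used GENCODE v29 lengths.

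Members and lists were chosen with earlier results of these data known. Beside members, the text names ERBB2, EGF, EPGN, AREGB, per comparison up to 3 called genes a list and direction with the largest fold change, and the 3 genes most like each of the 4 members of widest range.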

Additional observations from a re-analysis of the deposited data

Results flagged for a closer look

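Responses to 1 dose differed between lines for 10 member contrasts by limma's interaction terms, which is why they are listed. The same terms were called for 58.3% of all genes with 1 µM doxorubicin, so 7 of the 10 share this with most genes, and for 10.8% with 10 nM paclitaxel. With 1 µM doxorubicin the difference of the log2 fold changes, doxorubicin-resistant minus parental, was 1.64 for ERRFI1, 1.36 for ERBB4, 1.33 for EGFR, 0.97 for ERBB3, 0.66 for BTC, -0.77 for TGFA and -1.72 for HBEGF. With 10 nM paclitaxel the difference, paclitaxel-resistant minus parental, was 0.68 for ERBB4, -0.57 for HBEGF and -0.40 for TGFA, a call lost under 29 of the 38 alternatives. Groups of 2 libraries are too small to look for a library far from its group.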

How the results depend on the processing

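Of 162 member differences tested, 69 were called, and 42 of these held under all 38 alternatives, 30 of which leave out 1 library. The other 27 were lost under at least 1, 19 further differences were called under at least 1, and 0 reversed. Counts of called members moved by more than 1.5 times under at least 1 alternative in 9 of the 18 comparisons, and the cause was not tested. With only the lines compared in the model they were 1 for 2.5 nM paclitaxel (in place of 4), 1 for 65 nM doxorubicin (2) and 2 for ruxolitinib (5) in parental cells, and 5 for ruxolitinib (3) in paclitaxel-resistant cells. After GC and length correction they were 3 for ruxolitinib added to paclitaxel in parental cells (1) and 1 for 350 nM doxorubicin in doxorubicin-resistant cells (0). For ruxolitinib added to paclitaxel in paclitaxel-resistant cells the count of 2 became 1 with no filter, with no trend and with replicate number as a block. With each library left out in turn, counts ranged over 5 to 8 for doxorubicin-resistant against parental cells, 1 to 4 for 2.5 nM paclitaxel, 0 to 2 for 65 nM doxorubicin, 2 to 5 for ruxolitinib and 0 to 3 for ruxolitinib added to paclitaxel in parental cells. In doxorubicin-resistant cells they ranged over 0 to 1 for 350 nM doxorubicin. In paclitaxel-resistant cells they ranged over 1 to 4 for 10 nM paclitaxel, 1 to 4 for ruxolitinib and 0 to 3 for ruxolitinib added to paclitaxel.

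Replicate numbers showed no common pairing over all groups (correlations of same-numbered deviations -0.689 to 0.650 over 105 pairs of groups, median 0.0016). The correlation was over 0.1 in 30 of the 105, and pairing within some of the groups was not tested. The block ended 2 calls, ERRFI1 for ruxolitinib added to paclitaxel in paclitaxel-resistant cells (adjusted p = 0.0585) and TGFA in the difference of 10 nM responses (0.0576). Over all genes, GC and length correction moved the number called to 2891 from 1421 for 65 nM doxorubicin and 3526 from 1685 for ruxolitinib in parental cells, to 1819 from 486 for 350 nM doxorubicin, in paclitaxel-resistant cells to 143 from 12 for 6.5 nM and 3577 from 1735 for 10 nM paclitaxel, 2059 from 882 for ruxolitinib and 1361 from 418 for ruxolitinib on paclitaxel, and to 3330 from 1370 and 269 from 52 for the differences of 10 nM paclitaxel and ruxolitinib responses. With only the lines compared these became 1000 from 3414 for 2.5 nM paclitaxel, 461 for 65 nM doxorubicin, 775 for ruxolitinib and 1428 from 3561 for ruxolitinib on paclitaxel in parental cells, and 114, 3745, 2102 and 1047 for the 4 comparisons within paclitaxel-resistant cells. For 6.5 nM paclitaxel the 12 genes became 4 with no filter and 5 with voom. The low depth of ERBB4 and AREG limits their precision, and NRG1 was not detectable at this depth.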

Other observations

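EGF, the name-giving ligand, was no member of the set. It had 20.6 and 18.6 CPM in paclitaxel-resistant cells with DMSO, against 15.42 and 13.02 CPM in parental cells with DMSO, and the 10 libraries of the paclitaxel-resistant line ranged from 17.7 to 22.1 CPM. With 10 nM paclitaxel EGF had 9.99 and 10.8 CPM in parental cells, below both DMSO libraries (log2 fold change -0.42, limma adjusted p = 0.0057), at the dose where HBEGF, TGFA, EREG and AREG were higher and BTC missed the threshold at -0.33. With 1 µM doxorubicin in doxorubicin-resistant cells EGF was higher (0.37, limma adjusted p = 0.0154), as were HBEGF, TGFA and BTC. EGF was also higher by limma with 65 nM doxorubicin in parental cells (0.38, adjusted p = 0.0371) and with 350 nM in doxorubicin-resistant cells (0.42, adjusted p = 0.0482). The voom fit did not make the call at 350 nM.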
